A study of Mus musculus with 28 samples.

Results

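MMERVK10C and MMERVK9E are a pair of endogenous retrovirus (ERV) families of the ERVK class, and each genomic copy (integrant) carried by one of these names in the repeat track was followed here. An integrant was a member if its track name held a part starting with MMERVK10C or MMERVK9E and if it had at least 16 reads summed over the 16 RNA-seq libraries. These criteria kept 745 of the 123880 LINE, SINE, LTR and DNA integrants that reached the same minimum, 558 MMERVK10C and 187 MMERVK9E. The 16 libraries came from J1 mouse embryonic stem (ES) cells of strain 129S4/SvJae, grown in N2B27 medium with LIF and the 2i kinase inhibitors, a condition that holds them in the naive state. The cells were wild type (WT), lacked Dnmt1, Dnmt3a and Dnmt3b (DNMT TKO) or lacked Tet1, Tet2 and Tet3 (TET TKO). Every culture was transduced with a lentiviral vector, selected with puromycin and collected 5 days later, the vector being either a control without a hairpin against Kap1 (shEmpty) or one with such a hairpin (shKap1). WT and DNMT TKO cells gave 3 libraries per condition and TET TKO cells gave 2, each from a separate experiment. The knockout cells came from 2 other laboratories and no second clone of either is named, so a difference between genotypes cannot be told apart from a difference between lines.

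ERVs are remnants of retroviral infections of the germ line. A complete provirus has an internal part with the viral genes between a pair of long terminal repeats (LTRs), and the LTR holds the promoter, so the class of LTR attached to an internal part matters for its transcription. In ES cells, KRAB zinc finger proteins bind such elements by their sequence and recruit KAP1 (encoded by Trim28), which brings the histone methyltransferase SETDB1 and the repressive mark H3K9me3. DNA methylation, written by DNMT1, DNMT3A and DNMT3B and oxidized to 5-hydroxymethylcytosine (5hmC) by TET enzymes, is the other main repressive layer on ERVs. The question was how each of these layers bears on the expression of these integrants.

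The sequence at the start of the most highly read integrants shows how different these elements are. The first 200 bases in the direction of transcription are given for the 3 leading MMERVK10C and for the leading MMERVK9E integrants that do not share a locus, from the mm9 genome, with CpG dinucleotides, the substrate of DNA methylation, in capitals.

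MMERVK10C chr3:96124300-96124499 (minus strand): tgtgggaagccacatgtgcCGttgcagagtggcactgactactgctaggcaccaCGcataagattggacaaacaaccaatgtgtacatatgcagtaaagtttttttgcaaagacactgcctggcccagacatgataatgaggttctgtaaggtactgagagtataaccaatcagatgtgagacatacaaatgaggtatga
MMERVK10C chr11:97928691-97928890 (plus strand): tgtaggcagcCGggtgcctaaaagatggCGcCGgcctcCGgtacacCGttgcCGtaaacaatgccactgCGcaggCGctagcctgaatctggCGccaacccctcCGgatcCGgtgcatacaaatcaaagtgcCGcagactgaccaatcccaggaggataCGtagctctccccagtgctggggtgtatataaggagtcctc
MMERVK10C chr9:4260906-4261105 (plus strand): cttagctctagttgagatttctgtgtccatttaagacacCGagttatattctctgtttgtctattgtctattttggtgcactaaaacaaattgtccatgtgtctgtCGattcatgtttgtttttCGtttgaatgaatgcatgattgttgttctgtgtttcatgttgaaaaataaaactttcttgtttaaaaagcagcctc
MMERVK9E chr8:5859636-5859835 (minus strand): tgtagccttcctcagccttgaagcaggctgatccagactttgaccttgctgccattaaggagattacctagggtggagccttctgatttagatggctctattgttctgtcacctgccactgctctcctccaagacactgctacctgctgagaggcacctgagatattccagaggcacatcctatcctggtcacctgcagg
MMERVK9E chr1:58823806-58824005 (minus strand): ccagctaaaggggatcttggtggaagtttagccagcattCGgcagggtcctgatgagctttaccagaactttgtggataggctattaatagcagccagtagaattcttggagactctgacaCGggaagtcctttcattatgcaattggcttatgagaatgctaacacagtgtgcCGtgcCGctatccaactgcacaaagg

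The integrant on chromosome 3 is a full provirus with RLTR10C at both ends on the minus strand, and these first bases lie within that LTR and hold 2 CpGs. Its opening octamer, TGTGGGAA, was picked as the most frequent start of the 171 MMERVK10C integrants with RLTR10C at both ends that passed. It started 159 of them (93.0%) and 295 of 8425 other LTR integrants of at least 1000 bp (3.50%). Those others were taken whether or not they begin with an LTR. The integrant on chromosome 11 is also a full provirus, on the plus strand, but its LTR is RLTR27 and the same stretch holds 13 CpGs. The integrant on chromosome 9 is entered in the track as an internal part without an LTR, with 3 CpGs in this stretch. For MMERVK9E, the provirus on chromosome 8 has RLTR9D at both ends and no CpG in its first 200 bases, and the integrant on chromosome 1 is an internal part with 4.

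Gene reads per RNA library ranged from 18108431 to 29373696, and TE reads from 898152 to 1803819. Trim28, the target of the hairpin, stood at 1752 ± 207 counts per 1000000 gene reads (CPM; mean ± SD, n = 3) in WT shEmpty and at 165 ± 21.9 in WT shKap1. In TET TKO it went from 1835 ± 89.8 to 166 ± 3.84 (n = 2), but in DNMT TKO only from 1868 ± 197 to 427 ± 91.5 (n = 3), and the knockdown was shallower in DNMT TKO than in WT by 1.28 on the log2 scale (SE 0.21, edgeR adjusted p = 0.0008). The first DNMT TKO shKap1 library had the deepest knockdown of its group, 327 CPM of Trim28 against 448 and 506 in the others, and it also stood apart from them in ERV reads. Genes of the 2-cell state, a totipotent-like state that a small share of ES cells enters, rose with the knockdown. All 6 measured markers were called up in each genotype, and their summed CPM went from between 12.1 and 23.0 in WT shEmpty to between 200.0 and 221 in WT shKap1, from between 5.64 and 17.5 to between 59.5 and 133 in DNMT TKO and from between 8.30 and 9.62 to between 596 and 615 in TET TKO. The rise was larger in TET TKO than in WT for 4 of the 6. Of 7 naive ES cell markers 3 fell in WT and 1 in each knockout, their sum going from between 3647 and 3858 CPM to between 2200 and 2357 in WT. Summed markers of primitive endoderm (at most 17.6 CPM), feeder fibroblasts (at most 7.90) and trophoblast (at most 27.9) were low in every library, with 1, 1 and 2 genes up and 1 of each down in WT. In bulk RNA, fewer cells of a state and less RNA per cell cannot be told apart, and the part of these shifts in the ERV results was not tested.

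The track held 1206 MMERVK10C and 1091 MMERVK9E integrants, and most of the MMERVK9E integrants had no read. No uniquely mapped read fell on 322 MMERVK10C and 606 MMERVK9E integrants in any library, and 326 and 298 had 1 to 15 reads, so that 46.3% and 17.1% of the families passed. The threshold cut through a continuous range, with 9 MMERVK10C and 2 MMERVK9E integrants at exactly 15 reads and 8 and 3 at exactly 16. Integrants that passed carried 99.3% of the 231666 reads of MMERVK10C and 98.6% of the 80331 reads of MMERVK9E. They were longer than those that did not, with a median of 4644.5 bp against 873.5 bp in MMERVK10C and 1963 bp against 742 bp in MMERVK9E. Only uniquely mapped reads were counted, so young copies that are identical over the length of a read are undercounted by an amount that these files do not show.

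More complete proviruses passed the minimum more often. Of MMERVK10C integrants with LTRs at both ends, 86.1% of 331 passed, against 37.6% of 529 with 1 LTR and 20.6% of 339 with an internal part only. In MMERVK9E, full proviruses were rare, and 42.2% of 45 passed, against 22.4% of 459 with 1 LTR and 10.4% of 577 internal parts. The median CpG density of the first 500 bases of integrants that passed was 2.40 CpGs per 100 bases in MMERVK10C and 0.88 in MMERVK9E. Single integrants overlapped between the families. These bases are LTR in some integrants and internal part in others, and the part of completeness in this difference was not tested. Some integrants are pieces of the same provirus: 84 MMERVK10C and 78 MMERVK9E integrants lay within 1000 bp of another on the same strand, and joining them left 516 and 141 loci. Reads were concentrated, most of all in MMERVK9E, in which 3 integrants took 39.4% of all reads of the family, against 22.9% for the 3 leading MMERVK10C integrants.

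Kap1 knockdown raised the summed expression of both families in each genotype. MMERVK10C gave 87.2, 77.0 and 80.0 CPM in the 3 WT shEmpty libraries and 1152, 1238 and 1202 in WT shKap1. In DNMT TKO the values were 75.2, 80.1 and 83.1 CPM and, after knockdown, 1352, 953 and 840. In TET TKO they were 85.3 and 90.4 CPM, and 1740 and 1701 after knockdown. The shEmpty and shKap1 libraries did not overlap in any genotype, and TET TKO shKap1 libraries were above every other library. The rise was 3.88 on the log2 scale in WT (SE 0.16, edgeR adjusted p = 2.7e-09), 3.72 in DNMT TKO (SE 0.15, adjusted p = 2.6e-09) and 4.29 in TET TKO (SE 0.19, adjusted p = 5.2e-09), where 16.5%, 20.3% and 25.9% of the 885 repeat families tested were called in either direction. Among 542 families with at least 1000 reads, MMERVK10C ranked 11th by size of change in WT and in DNMT TKO and 9th in TET TKO. The family made up between 0.154% and 0.169% of TE reads in WT shEmpty and between 1.70% and 1.74% in WT shKap1.

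MMERVK9E was the lower of the families in every library and also rose in each genotype. It gave 46.1, 33.9 and 32.1 CPM in WT shEmpty and 464, 430 and 442 in WT shKap1. In DNMT TKO it went from 49.7, 41.5 and 42.3 CPM to 405, 254 and 257, and in TET TKO from 42.8 and 44.7 to 572 and 604. All shKap1 libraries were above all shEmpty libraries, but the second and the third DNMT TKO shKap1 libraries stayed well below those of the other genotypes. The log2 rise was 3.58 in WT (SE 0.20, edgeR adjusted p = 5.5e-08), 2.78 in DNMT TKO (SE 0.20, adjusted p = 2.8e-07) and 3.75 in TET TKO (SE 0.25, adjusted p = 1.5e-07). The family ranked 12th, 21st and 12th of the 542.

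**Figure D1:**
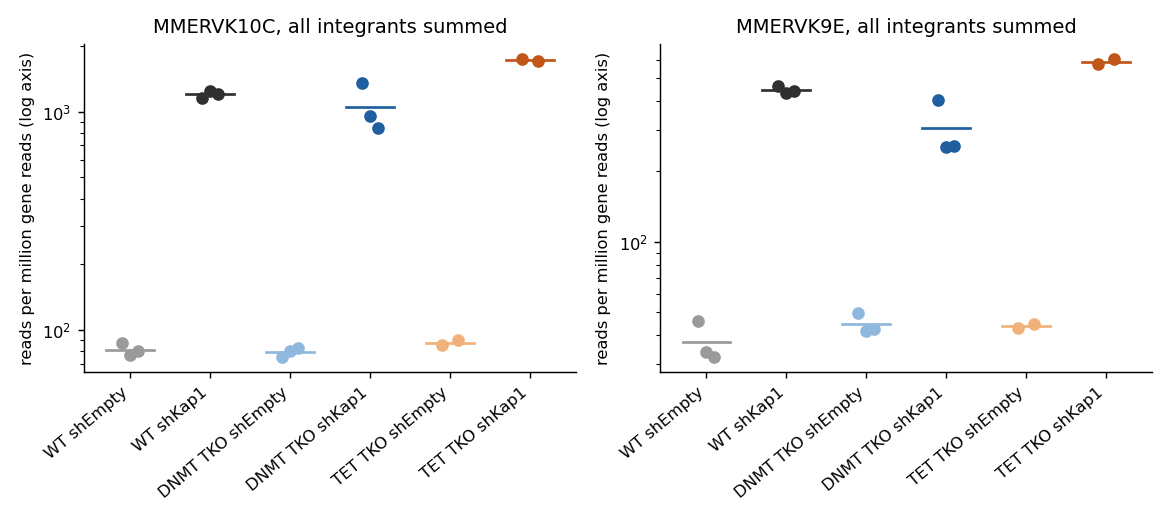
Summed expression of MMERVK10C (left) and MMERVK9E (right) in every RNA library, in CPM on a log axis, for shEmpty and shKap1 cells of the 3 genotypes. Points are libraries and horizontal bars are group means. The shKap1 libraries sit above the shEmpty libraries in each genotype, and the first DNMT TKO shKap1 library sits above the others of its group.

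The knockdown effect on the families was tested for a difference between genotypes, and none was called. For MMERVK10C the effect in DNMT TKO minus that in WT was -0.16 (log2, SE 0.20, edgeR adjusted p = 0.68) and in TET TKO minus WT it was 0.41 (SE 0.22, adjusted p = 0.27), while 4.75% and 4.29% of repeat families were called in these comparisons. For MMERVK9E the differences were -0.80 (SE 0.26, adjusted p = 0.081) and 0.17 (SE 0.29, adjusted p = 0.79). With the replicate number as a block, the first of these had an adjusted p of 0.022 (edgeR, log2 -0.83) but stayed under 2-fold, and without the first DNMT TKO shKap1 library it was called (-1.06, adjusted p = 0.00063). Trim28 was higher in DNMT TKO shKap1 than in the other shKap1 groups, and its part in the smaller MMERVK9E rise was not tested. A sum also weighs the most read integrants most, and in MMERVK9E 3 integrants took 39.4% of reads. These leading integrants, on chromosomes 1 and 8, were lower in DNMT TKO shKap1 than in WT shKap1. Over single MMERVK9E integrants, the fitted median of the DNMT TKO minus WT difference was -0.15. The part of the leading integrants in the family value was not tested. Loss of the DNMTs or of the TETs without Kap1 knockdown left both families within a narrow range. MMERVK10C differed from WT by -0.03 in DNMT TKO shEmpty (SE 0.14, adjusted p = 0.88) and by 0.11 in TET TKO shEmpty (SE 0.16, adjusted p = 0.73), and MMERVK9E by 0.26 (SE 0.19, adjusted p = 0.34) and 0.23 (SE 0.21, adjusted p = 0.55), where 9.38% and 4.63% of repeat families were called.

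At the level of single integrants, the rise was broad. In WT cells, 444 of 558 MMERVK10C integrants (79.6%) were called up and 1 down, against 12.1% of all integrants tested called up and 2.05% down. In DNMT TKO, 457 were called up and none down, where the background was 15.0% and 0.944%, and in TET TKO 475 up and 2 down, where it was 14.7% and 0.971%. Of MMERVK9E integrants, 112 of 187 (59.9%) were called up in WT, 121 in DNMT TKO and 133 in TET TKO, with no fall called in any. An integrant was called if its change reached 2-fold with an adjusted p under 0.05. Members had to reach 16 reads in total, and most of their reads are in shKap1 libraries, so these counts describe the integrants that passed and are no evidence beyond the family sums, which do not depend on that minimum.

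Many of these integrants had no read at all before the knockdown. In WT shEmpty, 217 of the 558 MMERVK10C integrants and 82 of the 187 MMERVK9E integrants were at 0 in all 3 libraries, whereas 3 and 8 were at 0 in WT shKap1. The numbers at 0 were 239 and 76 in DNMT TKO shEmpty and 236 and 67 in TET TKO shEmpty. A fitted fold change from 0 depends on the prior count of the fit and is no bound. With such groups set to a floor of 3 reads, the median log2 change over MMERVK10C was 3.35 in WT, 3.28 in DNMT TKO and 3.97 in TET TKO. The medians for MMERVK9E were 2.61, 2.57 and 2.90. Over all integrants the fitted median, without this floor, was 0.23, 0.27 and 0.33.

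In MMERVK10C, 379 integrants were called up in all 3 genotypes, 92 in 2, 55 in 1 and 32 in none. Of those up in WT, 89.0% were also up in DNMT TKO and 93.2% in TET TKO, and of those up in DNMT TKO and in TET TKO, 86.4% and 87.2% were up in WT. In MMERVK9E, 83 were up in all 3 genotypes, 44 in 2, 29 in 1 and 31 in none, and 79.5% and 90.2% of those up in WT were up in DNMT TKO and in TET TKO, while 73.6% of those up in DNMT TKO and 75.9% of those up in TET TKO were up in WT. Over all integrants called up, 63.7% of those up in WT were up in DNMT TKO and 72.6% in TET TKO, and 51.4% and 59.9% of those up in DNMT TKO and in TET TKO were up in WT.

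**Figure D2:**
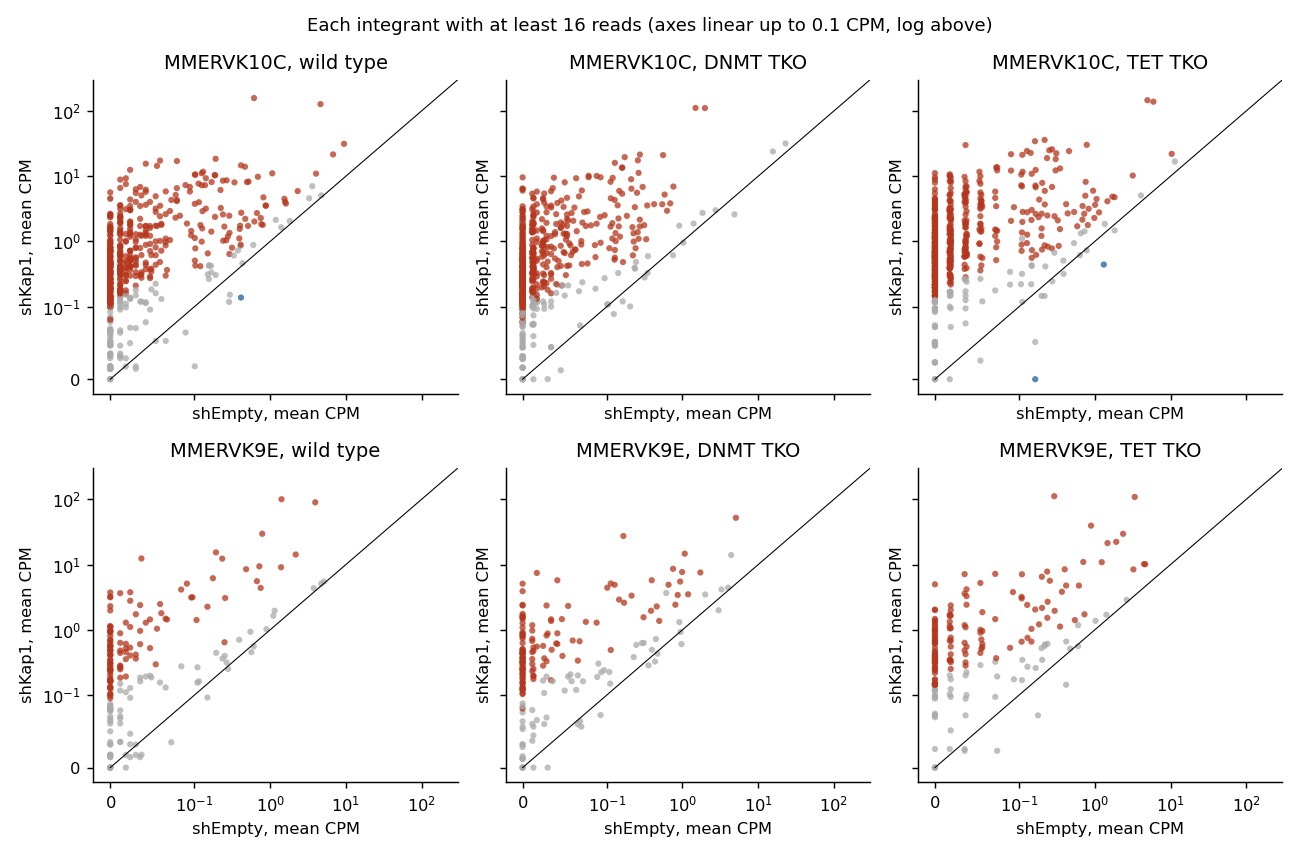
Mean expression of each integrant in shEmpty (x axis) and shKap1 (y axis) libraries, in CPM, for MMERVK10C (upper row) and MMERVK9E (lower row) in WT, DNMT TKO and TET TKO cells; both axes are linear up to 0.1 CPM and logarithmic above, and the diagonal marks equal expression. Each point is 1 integrant, red if called up, blue if called down and gray if not called, and most lie above the diagonal, with 444, 457 and 475 MMERVK10C integrants in red.

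The 3 MMERVK10C integrants with the most reads behaved differently from each other. The internal part at chr9:4260906-4266625 gave 0.278, 0.498 and 1.06 CPM in WT shEmpty and 154, 163 and 155 in WT shKap1, a log2 rise of 7.92 (SE 0.41, edgeR adjusted p = 2e-08). In DNMT TKO it went from 1.17, 1.21 and 2.08 CPM to 149, 90.5 and 93.2, and in TET TKO from 4.44 and 5.44 to 138 and 154. After knockdown it was thus about as high in TET TKO as in WT, but its starting level in TET TKO shEmpty was above every WT shEmpty library, by 2.93 on the log2 scale (SE 0.40, adjusted p = 0.00086), and its knockdown effect was smaller there by 3.04 (SE 0.52, adjusted p = 0.016).

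The RLTR10C provirus at chr3:96117386-96124499 gave 4.78, 5.12 and 3.96 CPM in WT shEmpty and 116, 136 and 128 in WT shKap1 (log2 4.78, SE 0.43, edgeR adjusted p = 1.2e-05). It went from 3.61, 1.21 and 1.12 CPM to 159, 94.9 and 77.0 in DNMT TKO and from 5.82 and 6.05 to 138 and 138 in TET TKO, and neither difference of the effect passed the test (adjusted p = 0.60 and 1.0). The RLTR27 provirus at chr11:97928691-97934383, whose LTR start holds 13 CpGs, was already expressed at 11.5, 8.11 and 8.74 CPM in WT shEmpty. It rose to 35.3, 31.6 and 26.9 CPM in WT shKap1, a log2 change of 1.73 (SE 0.15, adjusted p = 7.1e-28). In DNMT TKO shEmpty it stood at 19.5, 24.2 and 25.0 CPM, above WT by 1.28 (SE 0.15, adjusted p = 4e-15), and knockdown brought it to 36.9, 29.3 and 28.7 CPM, a smaller effect than in WT by 1.27 (SE 0.21, adjusted p = 8e-07). In TET TKO it went from 11.8 and 10.9 to 15.8 and 17.7 CPM, and the log2 changes of 0.47 in DNMT TKO and 0.56 in TET TKO were both under the 2-fold threshold.

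Other MMERVK10C proviruses went from no read to several CPM. The RLTR10C provirus at chr12:18787733-18794811 had 0 reads in all WT and TET TKO shEmpty libraries and 1 read each in the second and the third DNMT TKO shEmpty libraries. After knockdown it had 90, 156 and 102 reads in WT, 122, 101 and 86 in DNMT TKO and 238 and 219 in TET TKO, at least 142-fold higher in WT and at least 204-fold higher in TET TKO with 3 reads per group taken as the floor. The RLTR10C provirus at chr2:25598529-25603711 had no read in DNMT TKO shEmpty and 288, 190 and 161 after knockdown, at least 230-fold higher, and 4 reads in the second and in the third WT shEmpty library against 94, 149 and 114 in WT shKap1. At chr15:4930388-4937447, another RLTR10C provirus, there was 1 read in the 3 WT shEmpty libraries together and 180, 260 and 110 after knockdown, and in TET TKO 274 and 127 against none, at least 179-fold higher. The copy at chr7:97559324-97561767, with RLTR10C at 1 end, had 228, 234 and 181 reads in WT shKap1 against 1, 3 and 4 in WT shEmpty, and 192, 95 and 153 in DNMT TKO shKap1 against none.

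The single MMERVK10C integrant called down in WT was an RLTR27 provirus at chr11:5357161-5364241. It gave 0.278, 0.462 and 0.495 CPM in WT shEmpty and 0.157, 0.0433 and 0.213 in WT shKap1 (log2 -1.65, SE 0.48, edgeR adjusted p = 0.0086). The call was lost without the third WT shEmpty library (log2 -1.50, adjusted p = 0.058) or without the second WT shKap1 library (-1.16, adjusted p = 0.16). Its level in DNMT TKO shEmpty, 4.21, 5.11 and 5.24 CPM, was above every WT library, and in DNMT TKO shKap1 it was 2.55, 2.82 and 2.41 CPM, a fall that missed the 2-fold threshold (log2 -0.91, SE 0.24, adjusted p = 0.0013). In TET TKO it went from 1.16 and 1.46 to 0.370 and 0.513 CPM (log2 -1.57, SE 0.39, adjusted p = 0.0008), a call that was lost without the first TET TKO shKap1 library (-1.34, adjusted p = 0.055). The other integrant called down in TET TKO, chr2:34687029-34688156, is named here because it is the only other one and was chosen after its values were seen. It had 5 and 4 reads in TET TKO shEmpty and none in TET TKO shKap1 (log2 -4.98, edgeR adjusted p = 0.043), a call that was lost without any 1 of the 4 TET TKO libraries, with the replicate block, in DESeq2 and with a minimum of 1 read, and in WT it had none in shEmpty and 4, 2 and 1 in shKap1.

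In MMERVK9E, the integrants with the most and the third most reads are neighbours on chromosome 1, on the minus strand, less than 1000 bp apart, pieces of 1 locus. The internal part, chr1:58820319-58824005, gave 4.44, 3.202 and 4.18 CPM in WT shEmpty and 85.4, 93.1 and 91.0 in WT shKap1 (log2 4.52, SE 0.16, edgeR adjusted p = 8.5e-182). In DNMT TKO it rose from 3.66, 5.04 and 6.51 to 52.8, 53.8 and 49.4 CPM, an effect smaller than in WT by 1.16 (SE 0.20, adjusted p = 1.2e-06), and in TET TKO from 3.45 and 3.27 to 107 and 111. The piece with the RLTR9D LTR, chr1:58818716-58820122, showed the same order, with 28.5, 29.6 and 30.8 CPM in WT shKap1, 14.8, 14.9 and 14.4 in DNMT TKO shKap1 and 38.6 and 40.2 in TET TKO shKap1. At both pieces the first DNMT TKO shKap1 library lay between the other two.

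The RLTR9D provirus at chr8:5853009-5859835, the one without a CpG in its first 200 bases, gave 1.11, 1.57 and 1.56 CPM in WT shEmpty and 89.5, 101 and 109 in WT shKap1 (log2 6.12, SE 0.35, edgeR adjusted p = 4.3e-10). It reached 108 and 115 CPM in TET TKO shKap1 and 40.6, 16.9 and 24.5 in DNMT TKO shKap1. The log2 rise was 8.56 in TET TKO (SE 0.50) and 7.46 in DNMT TKO (SE 0.43). Neither difference of its effect from that in WT was called (2.43, edgeR adjusted p = 0.056, and 1.34, adjusted p = 0.43). Its shEmpty level was lower in both knockouts than in any WT library, at 0.355, 0.104 and 0.0385 CPM in DNMT TKO (log2 -3.21 against WT, SE 0.48, adjusted p = 0.0002) and 0.282 and 0.300 in TET TKO (log2 -2.28, SE 0.48, adjusted p = 0.0099). The RLTR9E copy at chr17:27414527-27418157 had no read in WT shEmpty and 69, 88 and 71 in WT shKap1, at least 92.8-fold higher. The internal part at chr15:33032597-33038856, in an intron of Pgcp on the opposite strand, had no read in any shEmpty library and 67, 73 and 52 reads in WT, 46, 23 and 53 in DNMT TKO and 112 and 93 in TET TKO shKap1.

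A few MMERVK9E copies were read in 1 genotype or not in another. The copy at chr12:19818504-19819055, an internal piece with RLTR9E at 1 end, had 75, 108 and 82 reads in DNMT TKO shKap1, at least 95.4-fold more than in DNMT TKO shEmpty, and at most 1 read in any other library. The internal part at chr12:19670599-19673319 had 31, 27 and 27 reads in WT shKap1 and 35 and 48 in TET TKO shKap1, but 1 read over the 6 DNMT TKO libraries. The internal part at chr5:110337035-110338181 had between 16 and 36 reads in every WT library of either condition and at most 2 in any DNMT TKO or TET TKO library. Whether such copies are present in the genome of each line is not known from these files.

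**Figure D3:**
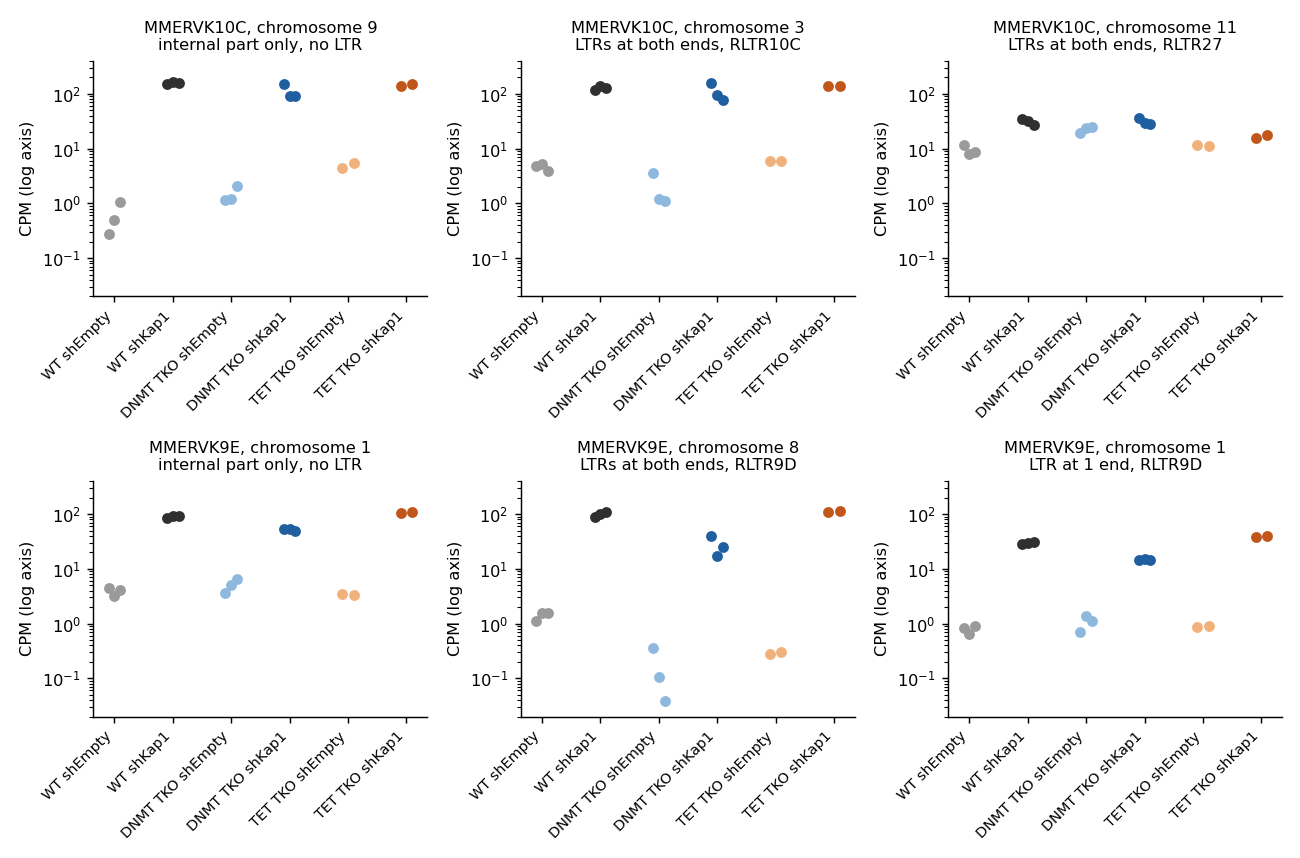
Expression of the 3 leading integrants of each family in every RNA library, in CPM on a log axis, by genotype and condition. Points are libraries. The RLTR27 provirus on chromosome 11 is the one that starts highest and rises least, and the provirus on chromosome 8 is lower in DNMT TKO shKap1 than in the other shKap1 groups.

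Among integrants that passed, the share called up differed with the LTR. Among 258 MMERVK10C integrants with RLTR10C, 238 (92.2%) were up in WT, 227 in DNMT TKO and 250 (96.9%) in TET TKO. Of 41 with RLTR10B, 29 were up in WT and 33 in each knockout, and of 31 with RLTR10B2, 26, 28 and 27 were up in WT, DNMT TKO and TET TKO. RLTR10F integrants were up in 3 of 16 in WT, but in 14 in DNMT TKO and 12 in TET TKO, although none of the 16 was called for a difference of the effect, at a median of 43 reads each. RLTR27 integrants were up in 16 of 29 in WT and in DNMT TKO and in 11 (37.9%) in TET TKO. Internal parts without an LTR were up in 43, 42 and 50 of 70. In MMERVK9E, RLTR9D integrants were up in 29, 25 and 26 of 35, RLTR9E in 31, 42 and 42 of 59, and internal parts in 30, 35 and 42 of 60, while of the 8 with RLTR9A3 only 2, 0 and 2 were up. These classes differ in length and depth, from a median length of 6895.5 bp and 167 reads for RLTR10C to 3316 bp and 55 reads for RLTR27, and the part of depth was not tested. A class with few shEmpty reads passes the minimum mostly through integrants that rise, whereas a class already read in shEmpty can pass without a rise. The minimum thus enters these shares, and they are no evidence that the LTR sets the rise.

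**Figure D4:**
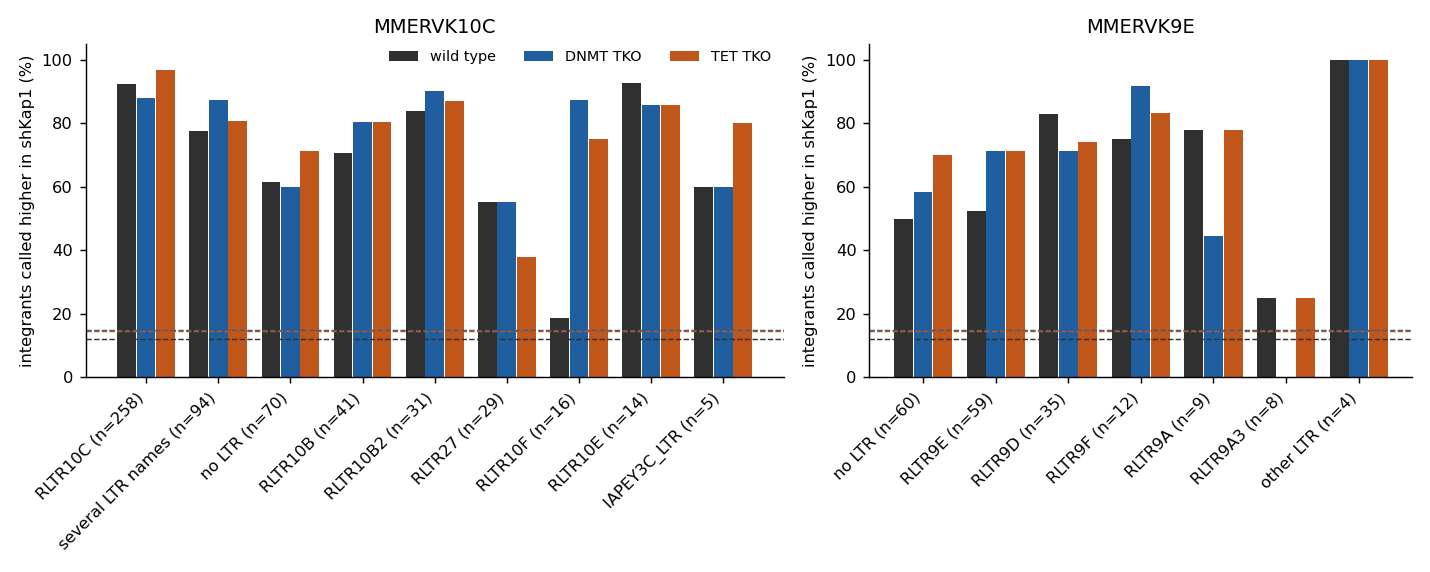
Percent of integrants called up with Kap1 knockdown (y axis) by the LTR that the track attaches to them (x axis), as bars for WT, DNMT TKO and TET TKO cells, with dashed lines for the share of all integrants called up (12.1%, 15.0% and 14.7%). RLTR10C integrants stand at 92.2%, 88.0% and 96.9%, and RLTR27 at 55.2%, 55.2% and 37.9%. Shares are among integrants with at least 16 reads, a minimum that members reached mostly through shKap1 libraries.

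The difference of the knockdown effect between genotypes was called at few of the 558 MMERVK10C and 187 MMERVK9E integrants. As shares, the counts below were still above those over all integrants, except the 3 MMERVK9E integrants with a larger effect in DNMT TKO, which lay near the background. Fitted medians of the difference over MMERVK10C were 0.79 (log2) for TET TKO minus WT and 0.14 for DNMT TKO minus WT. Over MMERVK9E they were 0.23 and -0.15, and over all integrants 0.14 and 0.10. Many members had no read in a group, and there the fitted value depends on the prior count. For DNMT TKO minus WT, 27 MMERVK10C integrants had a larger and 10 a smaller effect, where 1.33% of all integrants were called larger and 0.473% smaller, and 9 of the 27 carried RLTR10B. Without the second WT shEmpty library 6 were called smaller, and 16 in limma-voom. For MMERVK9E, 3 had a larger and 12 a smaller effect in DNMT TKO, and the 12 were called up in all 3 genotypes, so that they rose everywhere but by less in DNMT TKO. Both pieces of the chromosome 1 locus are among the 12, and calls were not counted by locus. The split was 12 larger among 27 calls in limma-voom, and 5 were larger without the second DNMT TKO shKap1 library. For TET TKO minus WT, 13 MMERVK10C integrants had a larger and 8 a smaller effect, where the background was 0.831% and 0.242%, and 6 of the 8 were internal parts without an LTR. The number smaller was 3 without the second WT shEmpty or the second TET TKO shEmpty library, 4 without the first and 5 without the second TET TKO shKap1 library, 5 without the third WT shEmpty library, 3 in DESeq2 and 2 with a minimum of 1 read. The counts for MMERVK9E were 6 and 3. The number larger was 3 without any 1 WT shEmpty library and without the second or the third WT shKap1 library. The number smaller was 1 in limma-voom. These TET TKO counts rest on few libraries: the 21 MMERVK10C calls became 13 without the second TET TKO shEmpty library, and the 9 MMERVK9E calls became 2 without either TET TKO shEmpty library, 5 without the second or the third WT shEmpty or the first TET TKO shKap1 library and 4 without the second TET TKO shKap1 library. A larger effect was in several cases a lower start: at the RLTR10C provirus chr6:11772861-11779973 there were 5, 13 and 21 reads in WT shEmpty and none in DNMT TKO shEmpty, and 143, 209 and 146 in WT shKap1 against 32, 39 and 33 in DNMT TKO shKap1, which gave a difference of 4.20 (SE 0.99, edgeR adjusted p = 0.024) although the final level was lower.

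Without Kap1 knockdown, the calls between DNMT TKO and WT differed in direction between LTR classes. In DNMT TKO shEmpty against WT shEmpty, 24 MMERVK10C integrants were called up and 43 down, against a background of 3.48% up and 6.45% down, and 21 MMERVK9E integrants were called up and 8 down, or 5 down without the second or the third DNMT TKO shEmpty library. The MMERVK10C counts, out of 558, lay near the background shares. Of the 41 RLTR10B integrants, 15 were down and none up. Of the 29 with RLTR27, 7 were up and none down, and of the 14 with RLTR10E, 4 were up and 1 down. The 258 with RLTR10C had 15 down and 3 up, shares no larger than those over all integrants. In MMERVK9E, 8 of 59 RLTR9E integrants were up and none down. In TET TKO shEmpty against WT shEmpty, 21 MMERVK10C integrants were up and 8 down and 15 MMERVK9E integrants were up and 5 down, against 1.74% and 2.33% of all integrants, and 9 of the 21 were internal parts while 8 of the 15 carried RLTR9E. Without the second TET TKO shEmpty library the TET TKO calls were 17 in MMERVK10C, down from 29, and 13 in MMERVK9E, down from 20. The calls below WT became 4 and 3 without that library, 5 and 2 without the first and 3 and 3 in limma-voom. These comparisons share the WT shEmpty libraries with the knockdown effect in WT.

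**Figure D5:**
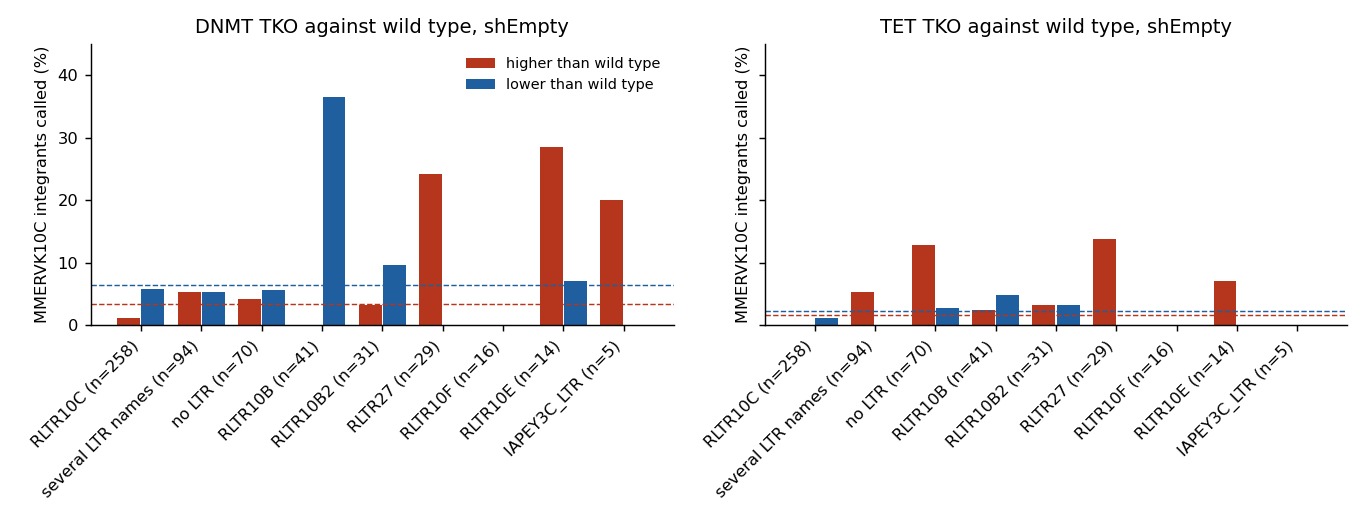
Percent of MMERVK10C integrants (y axis) called higher than WT (red bars) and lower than WT (blue bars) in DNMT TKO or TET TKO shEmpty cells, by LTR (x axis), with dashed lines for the share of all integrants called in each direction. RLTR10B has 15 of 41 integrants down and none up in DNMT TKO, whereas RLTR27 has 7 of 29 up and none down.

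Single copies show the range of these genotype differences. The MMERVK10C internal part at chr2:174984370-174988405 had no read in WT shEmpty, 3, 7 and 7 in DNMT TKO shEmpty and 13 and 19 in TET TKO shEmpty, at least 5.65-fold and at least 14.4-fold higher, and 8, 11 and 8 in WT shKap1. The MMERVK9E copy at chr1:7114719-7115179, with RLTR9E at 1 end and in an intron of Pcmtd1 on the opposite strand, had no read in WT shEmpty, 18, 11 and 2 in DNMT TKO shEmpty and 5 and 6 in TET TKO shEmpty. At chr2:15954041-15954781, another RLTR9E copy, WT shEmpty had 0, 2 and 0 reads, DNMT TKO shEmpty 28, 12 and 15 and TET TKO shEmpty 12 and 11. All 3 were called up with Kap1 knockdown in both knockouts. In DNMT TKO shKap1 they had 17, 13 and 11 reads, 80, 33 and 39 reads and 97, 28 and 35 reads, in the order named, with the first library highest. The copy at chr7:14680862-14682824, with RLTR9F and in an intron of Sult2a3 on the opposite strand, went the other way, with 13, 14 and 17 reads in WT shEmpty, none in DNMT TKO shEmpty and 2 in each TET TKO shEmpty library, and its level in WT did not pass the test for a change with knockdown (log2 -0.07, SE 0.42, edgeR adjusted p = 0.98). At chr14:62099447-62103165 the WT shEmpty reads were 15, 0 and 1, and without the first library the difference of the knockdown effect was not called in DNMT TKO (log2 4.24, adjusted p = 0.54) or in TET TKO (3.05, adjusted p = 0.77), and neither was the lower shEmpty level in TET TKO (-2.13, adjusted p = 0.74).

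Region lists deposited with the data were set against the integrants at a minimum overlap of 1 bp: KAP1 binding regions, which the authors had merged from peaks of KAP1 ChIP-seq, H3K9me3 regions classed by them as dependent on KAP1 or not, and H3K4me3 and H3K27me3 regions of WT J1 cells. Of the 558 MMERVK10C integrants that passed, 58.6% lay on a KAP1 region (exact 95% interval 54.4 to 62.7) and 63.6% on an H3K9me3 region, almost all of it H3K9me3 that the deposited lists class as KAP1-dependent (61.8%). Of the 187 MMERVK9E integrants, which are shorter (median 1963 bp against 4644.5 bp), 39.6% lay on KAP1 (32.5 to 47.0) and 38.5% on H3K9me3, all of it KAP1-dependent, and 0 of 187 overlapped a KAP1-independent region. With at least 25% of the integrant covered, 20.1% of MMERVK10C and 23.5% of MMERVK9E lay on KAP1, a difference that was not tested. The active mark H3K4me3 lay on 13 MMERVK10C integrants and 1 MMERVK9E integrant, and H3K27me3, the Polycomb mark, on 5 and 0. Integrants with fewer than 16 reads were less often covered, by KAP1 at 30.7% in MMERVK10C and 13.9% in MMERVK9E, and they are also shorter.

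Integrants with and without a KAP1 region were called up. Of the 327 MMERVK10C integrants on a KAP1 region, 278, 279 and 289 were called up in WT, DNMT TKO and TET TKO (85.0%, 85.3% and 88.4%), and of the 231 on none, 166, 178 and 186 were (71.9%, 77.1% and 80.5%). Of the 345 on KAP1-dependent H3K9me3, 299 were up in WT, and of the 203 on no H3K9me3 region 137 were. In MMERVK9E the shares were closer, with 47 of 74 up in WT on a KAP1 region and 65 of 113 on none. Integrants on no KAP1 region were shorter (median 3350 bp against 5632 bp). In 3 bins of CpG density, from low to high, 74.3%, 83.6% and 81.4% of MMERVK10C integrants were up in WT, and in 3 bins of length 59.7%, 87.1% and 91.9%. All these shares are among integrants that passed, mostly through shKap1 reads, so the minimum enters them too.

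In WT cells, 5hmC was measured by hMeDIP-seq (immunoprecipitation of DNA with an antibody against 5hmC) over KAP1 regions, and the first replicate gave 1 library per condition with its input. The titles and file names of the second replicate's 4 libraries disagree on which is which, so these were set aside and there is no test. Reads were scaled to the total counted over the deposited region lists of each library, not to its sequencing depth. At 458 KAP1 regions on MMERVK10C integrants, the median log2 change of the 5hmC to input ratio with Kap1 knockdown was 0.68 (quartiles 0.23 and 1.13), and 83.4% of regions were higher. At 78 regions on MMERVK9E integrants it was 0.56 (quartiles -0.09 and 1.14), with 66.7% higher. Over all 25992 KAP1 regions used it was 0.64 (quartiles 0.06 and 1.20), with 77.2% higher. The summed 5hmC to input ratio went from 1.03 to 1.66 over MMERVK10C and from 0.755 to 1.34 over MMERVK9E, and from 1.15 to 1.88 over all.

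Of genes with an annotated start within 5000 bp of an integrant that passed, 44 near MMERVK10C and 6 near MMERVK9E were expressed enough to test. Near MMERVK10C, 14 rose in WT, 12 in DNMT TKO and 14 in TET TKO and none fell, where 10.8%, 10.1% and 8.05% of the 20321 genes tested rose and 6.54%, 2.41% and 4.46% fell. Near MMERVK9E, 1, 3 and 2 of the 6 rose. Of the MMERVK10C genes in WT, 10 of the 26 on the same strand as the integrant rose and 4 of the 18 on the opposite strand. Within 20000 bp, 46 of 186 genes near MMERVK10C rose in WT and 3 fell, and 20 of 50 near MMERVK9E rose and 1 fell. Integrants passed mostly through reads in shKap1 libraries, so these genes were taken at loci that are read after knockdown. A read can also be counted both for a gene and for an integrant. The shares are thus no independent evidence of a rise near integrants.

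The largest rise near MMERVK10C was that of Olfr1372-ps1, an olfactory receptor pseudogene that starts 984 bp from a provirus on the same strand, chr11:51970769-51976417. It gave 0.111, 0.356 and 0.460 CPM in WT shEmpty and 7.71, 13.0 and 10.9 in WT shKap1 (log2 4.97, SE 0.31, edgeR adjusted p = 9.2e-10), and its log2 rise was 5.64 in DNMT TKO and 5.76 in TET TKO, beside 4.82, 5.17 and 5.87 for the provirus itself. The transcript RP23-3M10.7 on chromosome 5 overlaps an RLTR10E integrant, chr5:115272411-115273225, in its exon, and the reads of both cannot be told apart. It gave 11.5, 9.43 and 9.98 CPM in WT shEmpty and 32.3, 34.3 and 32.2 in WT shKap1 (log2 1.69, SE 0.10, adjusted p = 2.7e-10), and stood at 21.4, 25.5 and 27.8 in DNMT TKO shEmpty. The neighbouring 2610524H06Rik rose by 1.28 in WT (SE 0.16, adjusted p = 2.8e-06), although the internal fragment in its exon did not pass the test (log2 0.17, adjusted p = 0.79). Near MMERVK9E, the noncoding transcript Gm16233 on chromosome 3, whose exon overlaps an RLTR9F copy, went from 2.72, 1.71 and 1.70 to 13.2, 10.3 and 11.03 CPM in WT (log2 2.52, SE 0.28, adjusted p = 9.9e-07). It started lower in the knockouts, at 0.305, 0.138 and 0 CPM in DNMT TKO shEmpty and 0.670 and 0.713 in TET TKO shEmpty, and its rise there was larger than in WT by 2.11 (SE 0.60, adjusted p = 0.020) and 1.60 (SE 0.48, adjusted p = 0.045).

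Among 30 genes of the KAP1 and DNA methylation machinery, 4 rose and 1, Trim28, fell in WT, 0 and 1 in DNMT TKO and 1 and 1 in TET TKO, and the 4 rises are a share near the 10.8% of all genes that rose in WT. Zfp932 and Gm15446 encode a pair of KRAB zinc finger proteins. Zfp932 gave 33.3 ± 2.6 CPM in WT shEmpty and 38.2 ± 0.92 in WT shKap1 (log2 0.20, SE 0.08, edgeR adjusted p = 0.047), below the 2-fold threshold, and Gm15446 15.98 ± 0.77 and 20.1 ± 0.76 (log2 0.33, SE 0.08, adjusted p = 0.0032), and both were higher after knockdown in the knockouts as well, by 0.44 and 0.64 in DNMT TKO and by 0.51 and 0.79 in TET TKO. Setdb1 went from 218 ± 20 to 178 ± 7.8 CPM in WT (log2 -0.29). The 4 rises in WT, named here because they are few and not by the rule for named genes, were those of Suv39h1 (log2 1.21), Zfp809 (1.53), Dnmt3a (1.15) and Tet3 (1.80). In DNMT TKO shEmpty against WT shEmpty, transcripts of the deleted genes were down by log2 changes of -1.65 for Dnmt1, -3.04 for Dnmt3a and -2.64 for Dnmt3b, and in TET TKO shEmpty by -1.49 for Tet1 and -2.16 for Tet2, while Tet3 was at -0.03. Which exons are deleted is not given by the labels, and whether the remaining reads come from transcripts with a deletion was not tested.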

How the data were processed

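RNA was sequenced in 16 libraries (TruSeq Stranded) from independent experiments. Per the study's methods and processing notes, the authors aligned reads to mm9 with HISAT2 2.0.1 and kept uniquely mapped reads. The deposited values used here are raw read counts per gene (featureCounts 1.5.1) and per repeat integrant, counted with bedtools 2.25 on the repeat's strand over a RepeatMasker track in which the authors had merged LTRs with internal parts. Deposited regions from MACS 1.4 carry a peak score, by which the authors had merged KAP1 peaks, and hMeDIP-seq reads are deposited as counts per region. Counting by strand was checked on repeats inside coding exons, which held 20.3 reads per repeat on the gene's strand and 0.127 on the other.

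Integrants with at least 16 reads over the 16 libraries (123880), repeat families and genes were fitted in edgeR 4.0.16 (quasi-likelihood F test, R 4.3.3) with 1 model of 6 groups, TE counts being scaled by the gene totals and their TMM factors. P-values were adjusted by Benjamini-Hochberg over all features, and features past 2-fold with an adjusted p under 0.05 were called. Gene totals per library ranged from 18108431 to 29373696. Groups at 0 were set to a floor of 3 reads over the group, and floors and intervals cover counting error only. Counts were simulated for the knockdown in WT only (116368 integrants), with 1 fixed dispersion and the same starting level in every group. The fit called 10%, 84%, 92% and 100% of the 50 integrants changed by 2, 4, 8 and 16-fold each. The changed integrants had at least 200 reads, above the medians of 116.5 (MMERVK10C) and 88 (MMERVK9E) of integrants that passed. These shares are therefore no measure of power for the members. Named integrants of each family were the 3 with the most reads, the 2 largest rises and the largest fall called with knockdown in each genotype (at least 200 reads) and the largest change in each direction called in each other comparison (at least 100 reads). Named genes near integrants were the 3 largest rises and the largest fall called in WT per family (at least 500 reads). The members and lists were chosen with earlier results of these data known.

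The replicate numbers were checked as a pairing over genes. In WT, deviations of same-numbered shEmpty and shKap1 libraries from their group means correlated at 0.118 to 0.274. In DNMT TKO the range was 0.0781 to 0.330. In TET TKO both pairs were at -0.0037, values that are equal by construction with 2 libraries per group. Same-numbered WT and DNMT TKO shEmpty libraries correlated at 0.135 to 0.317. Library 1 was the shallowest in both of these groups (18613633 and 20134172 gene reads), and differently numbered libraries were not compared. A shared experiment and shared depth can thus not be told apart here. Fits with the replicate number as a block, DESeq2 1.42.0, limma-voom 3.58.1, other scalings, read minimums and overlaps, and fits without each library were run as alternatives. For the 4 hMeDIP-seq libraries of the second replicate the titles and the file names give different conditions or roles, so they were assigned to no group and entered no comparison.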

Additional observations from a re-analysis of the deposited data

Results flagged for a closer look

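Among the named integrants, the knockdown effect differed between genotypes by the test of the difference itself (edgeR, adjusted over all integrants) in 19 cases. The values are log2 changes of the effect against that in WT. Where a group had no read the fitted value depends on the prior count and is no bound, and no cause was tested for any of them.

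A smaller effect in DNMT TKO was called at the MMERVK10C proviruses or internal parts chr11:97928691-97934383 (-1.27) and chr2:174984370-174988405 (-5.00), and at the MMERVK9E copies chr1:58820319-58824005 (-1.16), chr1:58818716-58820122 (-1.49), chr18:19491204-19493744 (-5.42), chr2:15954041-15954781 (-4.80) and chr1:7114719-7115179 (-5.11). A smaller effect in TET TKO was called at the MMERVK10C integrants chr9:4260906-4266625 (-3.04), chr11:97928691-97934383 (-1.18), chr7:19043773-19049620 (-5.33) and chr2:174984370-174988405 (-4.85), and at the MMERVK9E copy chr2:15954041-15954781 (-2.95). A larger effect in DNMT TKO was called at chr2:25598529-25603711 (5.10), chr14:62099447-62103165 (7.56) and chr6:11772861-11779973 (4.20) of MMERVK10C and at chr7:14680862-14682824 (5.47) of MMERVK9E, and in TET TKO at chr14:62099447-62103165 (6.38), chr6:11772861-11779973 (3.69) and, in MMERVK9E, chr12:19670599-19673319 (5.08).

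Several of these calls were lost when 1 library was left out, at most of them with little change in the fitted difference. The difference at chr12:19670599-19673319 was lost without any 1 of 8 of the 10 WT and TET TKO libraries (edgeR adjusted p up to 0.41, log2 4.22 to 5.20) and with the replicate block (0.064, log2 5.03). At chr2:15954041-15954781 the TET TKO difference was lost without the first (0.11) or the third (0.20) WT shEmpty library, either TET TKO shEmpty library (0.097 and 0.073) or the first TET TKO shKap1 library (0.055), at log2 differences of -2.95 to -2.36. At chr7:19043773-19049620 it was lost without the second or the third WT shEmpty library (0.068 and 0.071) or the second TET TKO shEmpty library (0.16), at -5.32 to -5.05. At chr18:19491204-19493744 the DNMT TKO difference was lost without the second or the third library of WT shEmpty (0.075 each) or of DNMT TKO shEmpty (0.075 and 0.080), at -5.41 to -5.30, and at chr2:174984370-174988405 without the second or the third WT shEmpty library (0.060 each), at -4.98. Both differences at chr14:62099447-62103165 were lost without the first WT shEmpty library (0.54 and 0.77), and there the values moved too, to 4.24 and 3.05.

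Under other tools and settings, followed at the same calls only, some of them were also not called. In limma-voom and DESeq2 the TET TKO differences were lost at chr2:15954041-15954781 (adjusted p = 0.16 and 0.20), chr14:62099447-62103165 (0.18 and 0.15) and chr12:19670599-19673319 (0.082 and 0.13), the last also with TE totals (0.076). In that order, the log2 values were -2.90, 3.10 and 2.96 in limma-voom and -3.20, 6.33 and 4.66 in DESeq2. With TE totals the last was 5.02, and the main fit gave -2.95, 6.38 and 5.08. In DESeq2 the DNMT TKO difference at chr2:174984370-174988405 was lost (0.051, log2 -4.44). With a minimum of 1 read, those at chr18:19491204-19493744 (0.095), chr7:19043773-19049620 (0.054), chr12:19670599-19673319 (0.25) and, in TET TKO, chr2:15954041-15954781 (0.065) were not called, although their log2 values stayed at -5.42, -5.33, 5.08 and -2.95.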

How the results depend on the processing

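The rise of both families with Kap1 knockdown kept its direction and its call in each genotype under every alternative run. Of 270 values that the other settings gave for the results that answer a comparison, these rises included, 238 were labelled unchanged. Of 212 values without 1 library, 199 were. Log2 changes were unchanged if they kept direction and call, and shares and medians if they stayed within the spread. Many of the values are counts of calls, which were unchanged if they lay within a fixed fold tolerance of the main count. No measured spread entered the label of a count, so for counts it does not show agreement within measured variation. Scaling to TE totals moved the median of all integrants by -0.18 and -0.21 (log2) for knockdown in DNMT TKO and TET TKO, by -0.10 and -0.14 for the differences of the effect and by 0.22 and 0.12 for the shEmpty comparisons. The MMERVK10C sum in DNMT TKO shEmpty, -0.03 from WT, became 0.0044 with DESeq2 size factors and 0.21 with TE totals. Calls of MMERVK9E for TET TKO minus WT went from 9 to 5 with TE totals and to 4 with a minimum of 1 read, and those of MMERVK10C from 21 to 12 with that minimum and to 12 in DESeq2. Calls of MMERVK9E for DNMT TKO minus WT went from 15 to 27 in limma-voom. In TET TKO shEmpty, MMERVK10C calls went from 29 to 19 in limma-voom and 15 in DESeq2, and MMERVK9E calls from 20 to 11 in DESeq2. Genes called near integrants, 15 in WT, 15 in DNMT TKO and 16 in TET TKO, were 23 and 23 in WT and DNMT TKO without a fold threshold and 70, 52 and 59 within 20000 bp. The cause of these changes was not tested.

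Of MMERVK10C integrants, regions that cover at least 25% of the integrant left 20.1% on KAP1, 51.6% on H3K9me3, 48.7% on its KAP1-dependent part and 1.08% on H3K4me3 (1 bp overlap: 58.6%, 63.6%, 61.8% and 2.33%), and over the whole track these were 43.6%, 42.9%, 41.2% and 1.16%, with 3.32% in place of 5.20% on KAP1-independent H3K9me3. For MMERVK9E the first rule left 23.5% on KAP1 and 31.0% on H3K9me3 and on its KAP1-dependent part, and the whole track gave 18.3%, 17.9% and 17.3%. H3K4me3 fell from 0.535% to 0 with 25% cover and with peaks above the median score.

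Without each library in turn, the MMERVK10C sum in DNMT TKO shEmpty ranged from -0.073 to 0.026 and the MMERVK9E difference of the effect from -1.06 to -0.70 (DNMT TKO minus WT) and from -0.0051 to 0.27 (TET TKO minus WT). Calls for TET TKO minus WT ranged from 13 to 21 (MMERVK10C) and 2 to 7 (MMERVK9E), and in TET TKO shEmpty from 17 to 27 and 13 to 21. With the replicate block, knockdown called 438, 444 and 467 MMERVK10C and 110, 122 and 131 MMERVK9E integrants in WT, DNMT TKO and TET TKO. The block lost the call of chr12:19670599-19673319 and 1 of the 2 falls in TET TKO. Named integrants were checked with the block only in the comparison they were chosen for, and there no other call changed. Integrants chosen for the most reads, and the named genes, were not checked singly. TET TKO has 2 libraries per condition, and at integrants with 0 reads in shEmpty a lower level in a knockout was not detectable at this depth.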

Other observations

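The MMERVK10C internal part chr7:19043773-19049620 has no LTR in the track and no KAP1 or H3K9me3 region on it. It had no read in any WT shEmpty library and 84, 99 and 94 reads in WT shKap1, at least 113-fold higher with 3 reads per group taken as the floor. In DNMT TKO it went from 0, 2 and 0 reads to 45, 29 and 33 and in TET TKO from 3 and 4 to 81 and 36, and in CPM every knockout shKap1 library was below every WT shKap1 library. The MMERVK9E internal part chr18:19491204-19493744 was in a different order, with no read in WT shEmpty and 18, 23 and 26 in WT shKap1, 3, 9 and 12 in DNMT TKO shKap1 and 76 and 59 in TET TKO shKap1.

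The 4 hMeDIP-seq libraries of the second replicate were left in no group, because their titles and file names disagree on condition or on which are inputs. Per 1000000 reads counted over the deposited region lists, they held 1860, 2121, 3551 and 2034 reads on KAP1 regions of MMERVK10C, 180, 294, 326 and 302 on those of MMERVK9E, and 124271, 122156, 230315 and 115720 on all KAP1 regions.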
